A study of Homo sapiens with 12 samples.

Results

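The genes described here encode the soluble carriers that move RNA and protein between nucleus and cytoplasm and the nucleoporins, the proteins of the nuclear pore that the carriers pass through. They were taken by name: every array probe whose gene symbol began with XPO, IPO, KPNA, TNPO or NUP followed by a digit, or was XPOT, KPNB1, CSE1L, RAN, RANBP1, RANBP2, RANGAP1, NXF1, NXT1, RCC1 or TPR. This gave 54 genes with 73 probes, of 18665 genes with a symbol and 48803 probes on the array. NXF1 is not listed in the annotation used, so it is unnamed here.

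Exportins and importins are related ring-shaped carriers, and the small GTPase Ran sets the direction of their travel. RCC1 on chromatin loads Ran with GTP, which makes exportins bind and importins release their cargo, and RANGAP1 with RANBP1 and RANBP2 ends that state in the cytoplasm. The pore is built from a Y-shaped scaffold on both faces, an inner ring, channel proteins that form the barrier, filaments on the cytoplasmic face and a basket on the nuclear face.

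RNA was measured in 2 lines made from HEK293 Flp-In T-REx cells, a human embryonic kidney line with a single recombination site for a transgene. One line carried FLAG-tagged ALKBH7 and the other FLAG-tagged ALKBH4, both AlkB-type dioxygenases, and over-expression of each was profiled to see which transcripts change with it. Transcription of the transgene came from a tetracycline-inducible promoter, and each line descended from selected colonies of the 1 host line. The groups were ALKBH7 induced, ALKBH7 uninduced, ALKBH4 induced and ALKBH4 uninduced, with 3 arrays each. Induced cells had 2 µg/ml doxycycline for 48 h and uninduced cells had none, and all 4 groups grew in blasticidin and hygromycin. Drug and transgene always came together in the induced arrays and cannot be told apart. The labels do not state separate cultures for the 3 samples of a group, and the p-values therefore measure only the spread between these samples, which may be technical. In bulk RNA, fewer cells of a kind and less RNA per cell cannot be told apart.

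Levels are log2 of the quantile-normalized bead intensity, a brightness in arbitrary units, and they are compared between arrays for the same probe only, never between probes. A probe counted as detected in an array at a detection p-value under 0.01, and it was tested when detected in at least 3 of the 12 arrays. Of the members 65 probes of 53 genes were tested, among 15444 probes of 10159 genes in all. The 8 member probes not tested were both of NUP210L, a pair for NUP50 and 1 each for XPO4, TNPO1, NUP98 and RCC1, all but NUP210L with other probes that were tested. "Called" means a limma adjusted p under 0.05 after Benjamini-Hochberg adjustment over all tested probes, and errors of fold changes are standard errors (SE).

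The ALKBH7 probe checked the labels of its line, with 12.88, 12.94 and 13.32 in ALKBH7 induced arrays, against 9.66, 9.19 and 9.12 in ALKBH7 uninduced arrays. The ALKBH4 probe read 7.59, 7.81 and 7.27 in arrays labelled ALKBH4 induced, against 7.82, 7.76 and 7.44 in ALKBH4 uninduced arrays, so it did not separate them. The study places that probe in an untranslated region of the gene, and it is not used as a check of the labels here. ALKBH4 over-expression was measured in the study by qPCR and Western blotting, which were not analysed here. Of 8 HEK293 markers 5 to 6 were detected in every array of each group (INA, LIN28B, NEFL, STMN1 and VIM in all 4), while NEFM and NES were not. Of 6 fibroblast markers none or COL1A1 alone was detected in a group. Of 5 epithelial markers on the array 2 to 3 were (EPCAM and KRT19 in all 4 groups, CDH1 in all but ALKBH7 induced), and of 5 blood markers 1 to 2 were (HBA1 in all 4 groups and CD14 in both of the ALKBH4 line, but not PTPRC). The summed intensity of the epithelial list was 3195 to 3568 in ALKBH7 induced arrays, against 3960 to 5434 in ALKBH7 uninduced arrays, without overlap, and its part in the results was not tested. Array medians before normalization were 98.9 to 121 in the ALKBH7 line and 45.6 to 61.6 in the ALKBH4 line, and 52 to 58 of the 73 member probes were detected per ALKBH7 array, against 62 to 65 per ALKBH4 array.

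One array stood apart. ALKBH7 uninduced replicate 1 had a mean correlation of 0.940 with its own group over the tested probes and 0.967 with the ALKBH7 induced arrays. Its ALKBH7 probe read 9.66, above the 9.19 and 9.12 of the other uninduced arrays and below the lowest induced value of 12.88. At 44 of the 65 tested member probes (67.7%) this array lay nearer the mean of the induced arrays than that of uninduced replicates 2 and 3, as it did at 59.4% of all tested probes. Calls and counts of the ALKBH7 line are therefore also given without it after the description of the members.

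Promoter sequences are shown for 3 members whose transcripts differed after ALKBH7 induction: XPOT and NUP42, lower by every tested probe, and TNPO1, higher by one probe. Each is the RefSeq promoter window of 300 bases (GRCh38.p14) at the first start listed for the gene, 5′ to 3′ on the gene's strand. Capitals mark matches, on either strand, to the cyclic AMP response element TGACGTCA, the E-box CACGTG, the CCAAT box, the GC box GGGCGG or the ETS motif CCGGAAG.
XPOT promoter, chr12:64404142-64404441, strand +: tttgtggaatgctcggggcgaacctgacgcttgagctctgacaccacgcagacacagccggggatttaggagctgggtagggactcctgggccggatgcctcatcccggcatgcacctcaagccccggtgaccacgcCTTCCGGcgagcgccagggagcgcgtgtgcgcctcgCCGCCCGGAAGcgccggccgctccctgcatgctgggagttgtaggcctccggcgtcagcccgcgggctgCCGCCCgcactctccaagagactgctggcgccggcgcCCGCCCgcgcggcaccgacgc
NUP42 promoter, chr7:23181798-23182097, strand +: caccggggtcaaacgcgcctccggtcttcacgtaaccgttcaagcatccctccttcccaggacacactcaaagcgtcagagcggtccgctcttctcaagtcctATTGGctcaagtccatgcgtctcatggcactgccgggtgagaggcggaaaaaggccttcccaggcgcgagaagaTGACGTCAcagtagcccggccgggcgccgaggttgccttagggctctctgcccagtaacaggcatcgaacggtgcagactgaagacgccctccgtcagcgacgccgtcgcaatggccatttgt
TNPO1 promoter, chr5:72816411-72816710, strand +: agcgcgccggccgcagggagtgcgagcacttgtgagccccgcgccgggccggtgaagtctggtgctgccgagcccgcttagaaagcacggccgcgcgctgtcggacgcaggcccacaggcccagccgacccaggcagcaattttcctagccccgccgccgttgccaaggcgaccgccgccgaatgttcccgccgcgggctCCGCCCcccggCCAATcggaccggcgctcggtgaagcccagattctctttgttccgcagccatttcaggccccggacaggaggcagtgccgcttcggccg
The XPOT window held 3 GC boxes and 2 ETS motifs, of which 1 pair overlapped. The NUP42 window held 1 cyclic AMP response element and 1 CCAAT box, and the TNPO1 window 1 CCAAT box and 1 GC box. Of the 54 member genes 48 matched a RefSeq window. The ETS motif was in 15 of these 48 (31.2%), against 10.7% of all 27305 genes' windows, and the CCAAT box in 24 (50%), against 35.7%. The GC box was in 26 (54.2%), against 44.6%, the E-box in 7 (14.6%), against 7.43%, and the cyclic AMP response element in 4 (8.33%), against 1.98%. These are matches of letters, with no test, and no binding was measured.

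After ALKBH7 induction the transcript of the tRNA exporter was lower, and transcripts of other carriers and of nucleoporins differed in both directions. By limma 4 member probes of 4 genes were called higher (background 11.8% of all tested probes) and 9 probes of 7 genes lower (background 12.2%), so that 20.0% of member probes were called, against 24.0% of all tested probes. XPOT, NUP160, NUP42, IPO7, RANBP1, NUP35 and NUP37 fell, and TNPO1, NUP43, RCC1 and NUP88 rose, RANBP1, NUP35, TNPO1 and RCC1 by only some of their probes. The median log2 fold change of the members was -0.10, against 0.02 over all tested probes, and 39 of the 65 were negative. No overlap between the 3 induced and 3 uninduced arrays was seen at 19 member probes (29.2%), against 36.7% of all tested probes. The share of member probes called was near that of the array as a whole, and under some alternatives given at the end it was the larger.

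**Figure D1:**
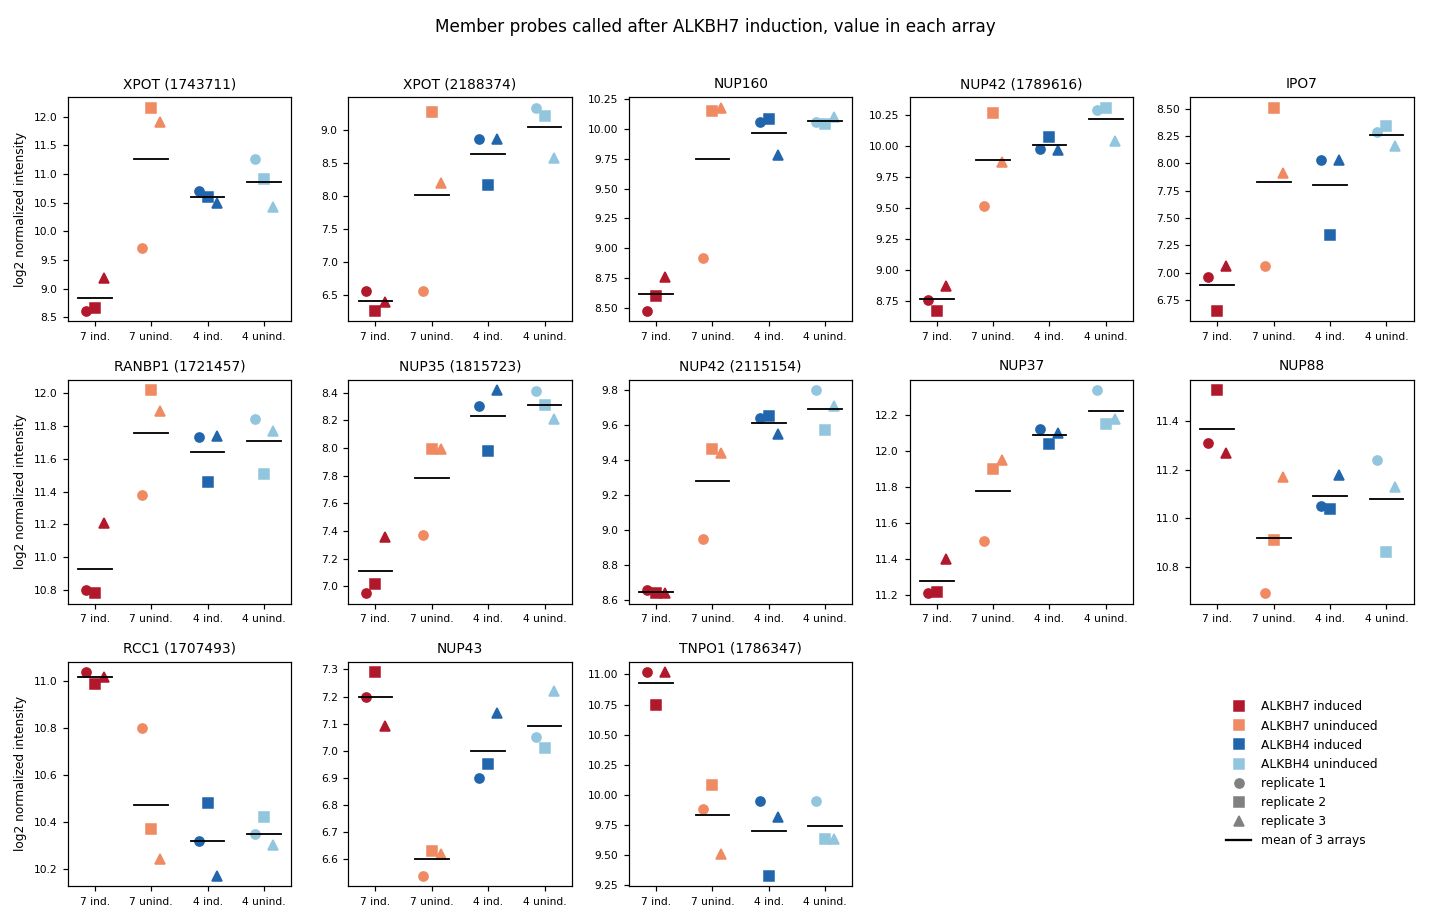
Log2 normalized intensity (y axis) in each of the 12 arrays for the 13 member probes called after ALKBH7 induction, with the groups along the x axis (7 ind. and 7 unind., ALKBH7 induced and uninduced; 4 ind. and 4 unind., ALKBH4 induced and uninduced), symbols for replicates and a bar for the mean of 3 arrays; each panel has its own scale. For RCC1 and every probe called lower the uninduced replicate 1 (circle) of the ALKBH7 line sits between the induced arrays and uninduced replicates 2 and 3 or among the induced arrays.

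Among the exportins the difference lay in XPOT, which carries mature tRNA out of the nucleus. Its probe ILMN_1743711 read 8.61, 8.67 and 9.19 in ALKBH7 induced arrays, against 9.71, 12.16 and 11.90 in ALKBH7 uninduced arrays. The groups did not overlap, and uninduced replicate 1 stood well under the other uninduced arrays. The log2 fold change was -2.43 ± 0.47 (adjusted p = 0.00438), which ranked 1 from the lowest of the 15444 tested probes. The second XPOT probe, ILMN_2188374, read 6.56, 6.25 and 6.39 in ALKBH7 induced arrays, against 6.55, 9.27 and 8.20 in ALKBH7 uninduced arrays. Here uninduced replicate 1 lay among the induced arrays, so the groups overlapped. The probe was detected in no induced array and in 2 of 3 uninduced arrays (fitted log2 fold change -1.61 ± 0.48, adjusted p = 0.0293). With the detection floor in place of the induced values, the uninduced mean was 2.31-fold higher than the induced mean. The uninduced mean keeps undetected uninduced replicate 1 at its own 6.55, so 2.31 is a ratio of means and not a lower bound.

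The other exportins had no call. XPO1, the general exporter of proteins with leucine-rich signals, read 10.27, 10.35 and 10.44 in ALKBH7 induced arrays, against 9.57, 10.71 and 11.09 in ALKBH7 uninduced arrays, and the log2 fold change was -0.10 ± 0.27 (adjusted p = 0.809). The uninduced arrays lay on both sides of the induced ones. CSE1L, which returns importin alpha to the cytoplasm, had 0.23 ± 0.20, XPO5, the exporter of pre-miRNA, 0.23 ± 0.15, XPO6, the exporter of actin, -0.18 ± 0.15, and XPO7 -0.30 ± 0.18. The XPO4 probes had -0.19 and 0.43 (adjusted p = 0.479 and 0.0759).

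Of 13 probes for importin beta type carriers, 1 was called in each direction. TNPO1 (transportin), which imports RNA-binding proteins, read 11.02, 10.75 and 11.02 by probe ILMN_1786347 in ALKBH7 induced arrays, against 9.88, 10.08 and 9.51 in ALKBH7 uninduced arrays. All induced arrays were higher than all uninduced arrays, by 1.11 ± 0.19 on the log2 scale (adjusted p = 0.00268), and uninduced replicate 1 lay with its group. Other TNPO1 probes did not show this rise: ILMN_1837935 had a log2 fold change of -0.57 ± 0.28 (adjusted p = 0.145) and ILMN_1763627, detected in no induced array, -0.10 ± 0.28 (adjusted p = 0.831). IPO7, an importer of ribosomal proteins and linker histone, read 6.96, 6.65 and 7.06 in ALKBH7 induced arrays, against 7.06, 8.51 and 7.91 in ALKBH7 uninduced arrays. Its groups met at uninduced replicate 1, and the log2 fold change was -0.94 ± 0.29 (adjusted p = 0.0342).

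KPNB1, importin beta itself, did not separate the groups, with 12.28, 12.47 and 12.22 in ALKBH7 induced arrays, against 12.03, 12.29 and 12.48 in ALKBH7 uninduced arrays (log2 fold change 0.05 ± 0.15, adjusted p = 0.817). The remaining carriers of this type ranged between -0.36 for IPO5 and 0.44 for TNPO3, the importer of SR splicing proteins. None of the 6 importin alpha adaptors, which link classical import signals to KPNB1, was called, and they ranged between -0.47 for KPNA6 and 0.34 for KPNA3. KPNA2 and KPNA5 were detected in no array of the ALKBH7 line.

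In the Ran system the largest difference that passed the test was that of RANBP1, the Ran-binding cofactor of RANGAP1. Probe ILMN_1721457 read 10.80, 10.78 and 11.21 in ALKBH7 induced arrays, against 11.38, 12.02 and 11.89 in ALKBH7 uninduced arrays, a log2 fold change of -0.83 ± 0.18 (adjusted p = 0.0076) without overlap. The other RANBP1 probe pointed the opposite way, with 10.73, 10.68 and 10.71 in ALKBH7 induced arrays, against 10.20, 10.21 and 10.19 in ALKBH7 uninduced arrays. That difference of 0.51 ± 0.20 on the log2 scale did not pass (adjusted p = 0.0849), although those arrays did not overlap either.

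RCC1, the exchange factor that charges Ran with GTP, read 11.04, 10.99 and 11.02 by probe ILMN_1707493 in ALKBH7 induced arrays, against 10.80, 10.37 and 10.24 in ALKBH7 uninduced arrays. It was higher in every induced array, by 0.55 ± 0.15 on the log2 scale (adjusted p = 0.0189), while its second tested probe, undetected in the induced arrays, had -0.23 ± 0.21 (adjusted p = 0.438). RAN read 8.81, 8.99 and 8.93 in ALKBH7 induced arrays, against 8.19, 10.62 and 10.01 in ALKBH7 uninduced arrays. The induced arrays lay close to each other, uninduced replicate 1 lay under all of them and the other 2 above. The log2 fold change of RAN was -0.70 ± 0.42 (adjusted p = 0.236), and RANGAP1, the GTPase activator, had 0.06 ± 0.19.

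Among the nucleoporins, the Y-shaped scaffold had calls in both directions. NUP160 read 8.47, 8.60 and 8.76 in ALKBH7 induced arrays, against 8.92, 10.15 and 10.18 in ALKBH7 uninduced arrays (log2 fold change -1.14 ± 0.26, adjusted p = 0.00909). NUP37 read 11.21, 11.22 and 11.40 in ALKBH7 induced arrays, against 11.50, 11.90 and 11.95 in ALKBH7 uninduced arrays (-0.51 ± 0.14, adjusted p = 0.0191). Both scaffold subunits were lower in every induced array, with uninduced replicate 1 the nearest to them. NUP43 was higher in every induced array: it read 7.20, 7.29 and 7.09 there, against 6.54, 6.63 and 6.62 in ALKBH7 uninduced arrays, where it was not detected. This makes it at least 1.40-fold higher in ALKBH7 induced arrays (adjusted p = 0.00512). NUP107, NUP133 and NUP85, further subunits of the same scaffold, had log2 fold changes of -0.21, -0.46 and -0.20 with no call.

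On the cytoplasmic face NUP42, the pore partner of the mRNA export factor GLE1, was lower by both of its probes. ILMN_1789616 read 8.76, 8.67 and 8.87 in ALKBH7 induced arrays, against 9.52, 10.27 and 9.87 in ALKBH7 uninduced arrays (log2 fold change -1.12 ± 0.17, adjusted p = 0.0015). ILMN_2115154 read 8.66, 8.64 and 8.64 in ALKBH7 induced arrays, against 8.95, 9.46 and 9.44 in ALKBH7 uninduced arrays (-0.64 ± 0.14, adjusted p = 0.00842). Neither probe overlapped between the groups, and by both probes uninduced replicate 1 was the nearest to the induced arrays. NUP88, which anchors the NUP214 filament, read 11.31, 11.53 and 11.27 in ALKBH7 induced arrays, against 10.69, 10.91 and 11.17 in ALKBH7 uninduced arrays. Its rise of 0.45 ± 0.15 on the log2 scale was the call nearest the threshold (adjusted p = 0.0445), and NUP214 had -0.18 ± 0.21 with no call. RANBP2, the long filament protein, was detected in no array of the ALKBH7 line.

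In the inner ring 1 of 7 probes was called. NUP35 read 6.95, 7.02 and 7.36 by probe ILMN_1815723 in ALKBH7 induced arrays, against 7.37, 7.99 and 7.99 in ALKBH7 uninduced arrays, a log2 fold change of -0.68 ± 0.18 (adjusted p = 0.0193). The highest induced and the lowest uninduced array differed by little. The other NUP35 probe had 0.16 ± 0.25 (adjusted p = 0.657). Probes for NUP93, NUP155, NUP188 and NUP205 lay between -0.13 and 0.23 with no call.

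The channel, the basket and the membrane had no call. Channel probes for NUP54, NUP58 and NUP62 ranged between -0.26 and 0.49. In the nuclear basket NUP153 read 8.61, 8.76 and 9.05 in ALKBH7 induced arrays, against 8.45, 10.30 and 10.26 in ALKBH7 uninduced arrays. The RAN pattern recurred here, with uninduced replicate 1 lowest of all 6 arrays, and the log2 fold change of -0.87 ± 0.37 did not pass (adjusted p = 0.0992). TPR, the filament of the basket, had -0.10 ± 0.15, NUP50 -0.09 ± 0.14, the membrane protein NUP210 -0.08 ± 0.20, the mRNA export cofactor NXT1 -0.20 ± 0.12 and NUP62CL 0.12 ± 0.15. The NUP98 probes had -0.31 and -0.04.

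**Figure D2:**
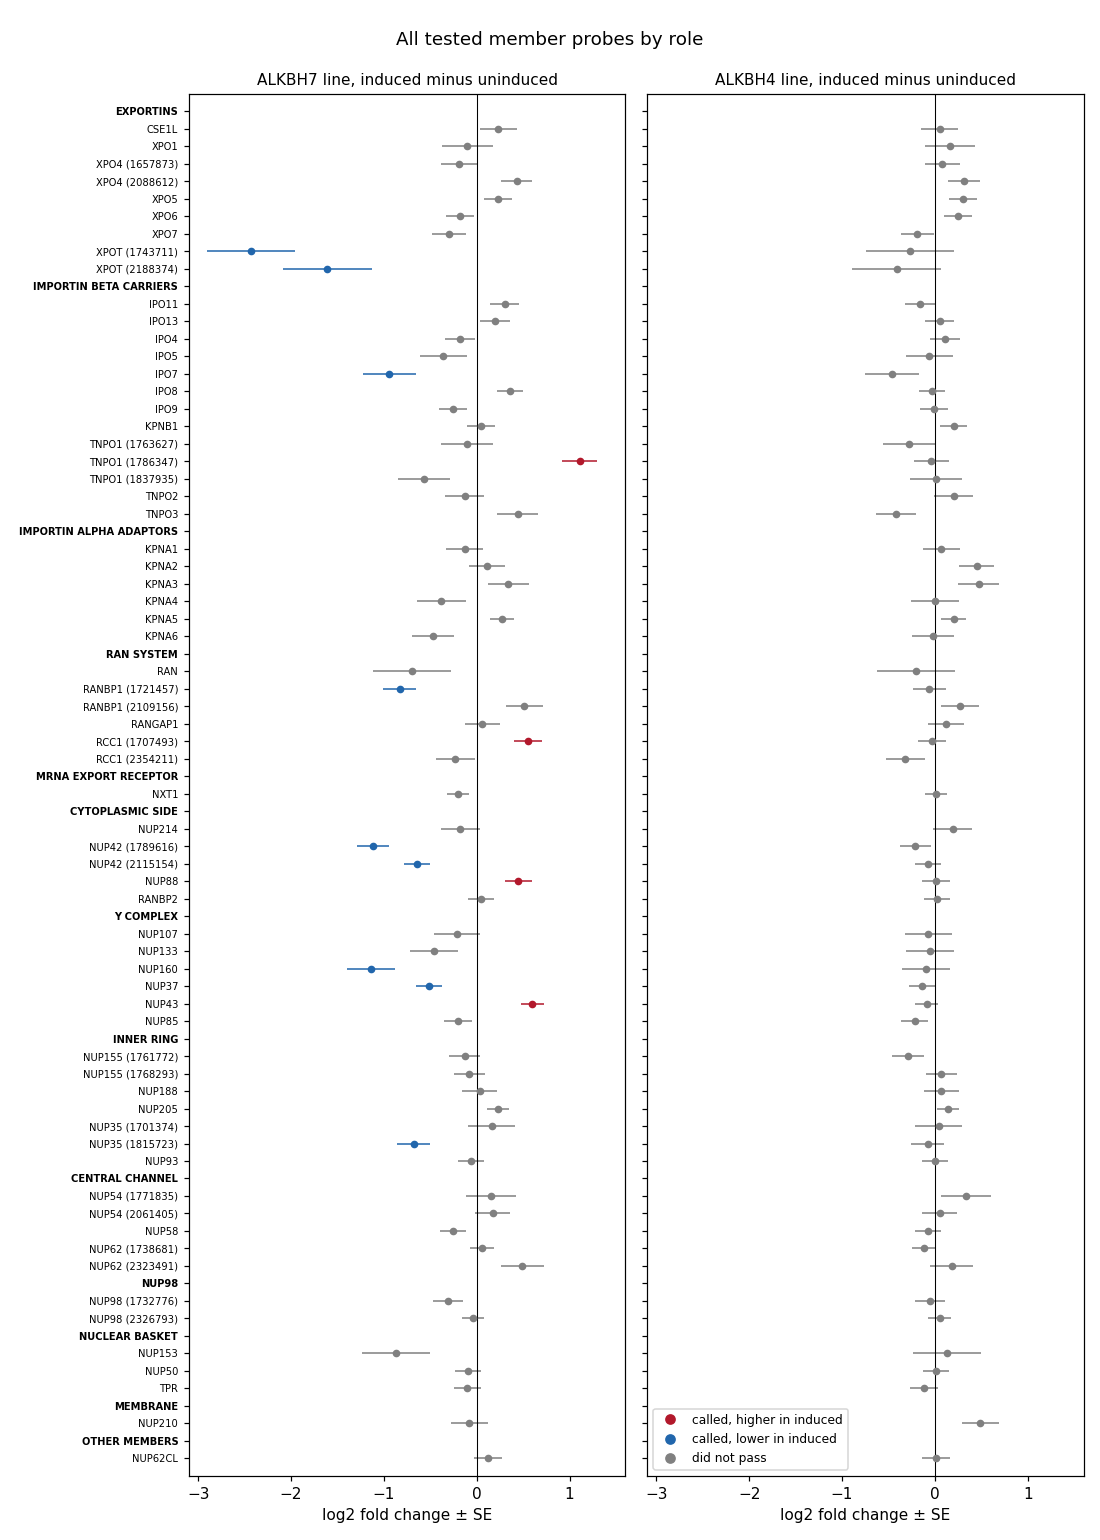
Log2 fold change of induced over uninduced arrays with its SE (x axis) for the 65 tested member probes, grouped by role (y axis), in the ALKBH7 line (left) and the ALKBH4 line (right); red and blue points were called higher and lower, and grey points did not pass. XPOT reaches -2.43 and TNPO1 1.11 in the ALKBH7 line, while all points of the ALKBH4 line are grey and lie between -0.46 and 0.49.

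Probes of a gene often disagreed. Of 11 genes with more than 1 tested probe, every probe was called, and in the same direction, only for XPOT and NUP42. For NUP35, RANBP1, RCC1 and TNPO1 only 1 probe was called and the signs differed between probes, and for the remaining 5 genes (NUP155, NUP54, NUP62, NUP98 and XPO4) none was called. Different probes can read different transcripts of a gene, and their part in the disagreement was not tested.

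Leaving out ALKBH7 uninduced replicate 1 moved the members' counts to 5 higher and 20 lower, 25 in all (38.5%), while 44.4% of all tested probes were then called. The members' median was -0.13, against 0.03 over all, and the groups did not overlap at 41 member probes (63.1%), against 69.6% of all tested probes. Of the 13 calls above 12 were kept, and NUP88 was lost (0.33 ± 0.14, adjusted p = 0.0766). XPOT then had log2 fold changes of -3.21 ± 0.22 and -2.38 ± 0.29, NUP160 -1.56 ± 0.13, IPO7 -1.34 ± 0.22, NUP42 -1.31 ± 0.14 and -0.80 ± 0.12, RANBP1 -1.02 ± 0.16, NUP35 -0.90 ± 0.16 and NUP37 -0.65 ± 0.12. RCC1 had 0.71 ± 0.12. TNPO1 at 1.13 ± 0.20 and NUP43 at 0.59 ± 0.13 hardly moved. Newly called were NUP153 (-1.48 ± 0.17, adjusted p = 1.68e-05), RAN (-1.41 ± 0.17, adjusted p = 2.62e-05), the TNPO1 probe ILMN_1837935 (-1.03 ± 0.13, adjusted p = 3.66e-05) and XPO1 (-0.55 ± 0.13, adjusted p = 0.0045). NUP133, KPNA4, IPO5, NUP107, XPO7, NUP98 and XPO4 were also called lower, and IPO13 and NUP62 higher. KPNB1 had -0.06 ± 0.15 and the second probes of RANBP1, RCC1 and NUP35 0.51 ± 0.22, -0.39 ± 0.21 and 0.21 ± 0.27, all with no call.

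With that array as the only ALKBH7 uninduced one, 9 member probes were called (13.8%), 7 higher and 2 lower, against 12.6% of all tested probes, and the members' median was 0.07, against 0.01 over all. Of the 13 calls above 4 were among them, NUP42 by probe ILMN_1789616 (-0.78 ± 0.16, adjusted p = 0.0127), TNPO1 (1.08 ± 0.24, adjusted p = 0.0146), NUP43 (0.65 ± 0.16, adjusted p = 0.0256) and NUP88 (0.70 ± 0.18, adjusted p = 0.0275). XPOT had -0.90 ± 0.29 (adjusted p = 0.0575) and -0.15 ± 0.31 (adjusted p = 0.784). The other probes called were RAN (0.73 ± 0.18), XPO1 (0.80 ± 0.15), CSE1L (0.81 ± 0.18) and KPNA3 (0.86 ± 0.21), all higher, and XPO6 (-0.56 ± 0.16), lower. This fit assumes that the lone array varies as arrays of the other groups do. For NUP42 (ILMN_1789616), TNPO1 (ILMN_1786347) and NUP43 the direction and the call thus held with either set of uninduced arrays, and for RAN and XPO1 the direction depended on which set was used.

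**Figure D3:**
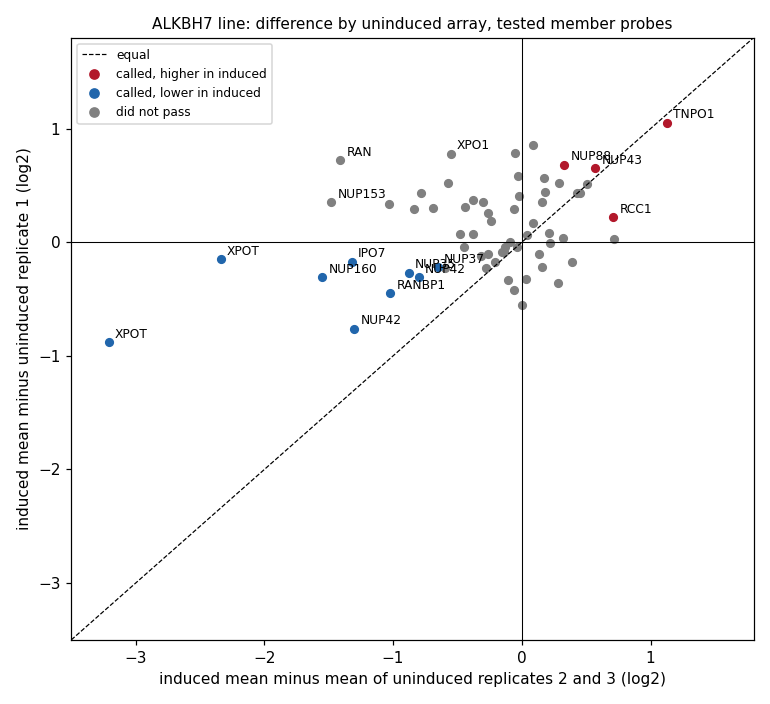
Each point is a tested member probe, with the mean of the ALKBH7 induced arrays minus the mean of uninduced replicates 2 and 3 on the x axis and minus uninduced replicate 1 on the y axis (log2 units); the dashed line marks equality, and red and blue points were called higher and lower. Every called probe has the same sign on both axes, positive for TNPO1, NUP43, NUP88 and RCC1 and negative for the rest. RAN, XPO1 and NUP153 are negative on x and positive on y.

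When arrays were scaled to a common median instead of quantile normalized, no member was called in the ALKBH7 line, and 0.00648% of all tested probes were then called. XPOT (ILMN_1743711) had -2.09 ± 0.52 (adjusted p = 0.162) and TNPO1 (ILMN_1786347) 1.30 ± 0.31 (adjusted p = 0.161) under this scaling. RANBP1 (ILMN_1721457) shrank to -0.47 ± 0.32 and NUP37 to -0.13 ± 0.30, while RCC1 (ILMN_1707493) and NUP88 had 0.79 ± 0.27 and 0.76 ± 0.31. Every probe called above kept its sign, and XPO1, which had no call, changed sign to 0.16 ± 0.41.

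Transport genes outside the list were counted beside the members. Of 54 probes for 31 genes of mRNA export, the pore and import cofactors, none was called higher and 8 probes of 6 genes were called lower after ALKBH7 induction. THOC3 fell by a pair of its 4 probes (log2 fold changes -1.32 ± 0.28 and -1.06 ± 0.17), while the others had -0.24 ± 0.12 and -0.18 ± 0.29 with no call. THOC6, like THOC3 a subunit of the THO complex that packages mRNA for export, fell by its single probe (-1.11 ± 0.16). RAE1, a partner of NUP98, fell by both probes (-1.20 ± 0.34 and -0.66 ± 0.14), and PCID2 by its single probe (-0.50 ± 0.16). The export adaptor ALYREF (-0.87 ± 0.21) and the RNA helicase DDX39B (-0.74 ± 0.20) fell by 1 of 3 probes each, the others having -0.03 and -0.20 (ALYREF) and -0.30 and 0.07 (DDX39B) with no call. Adjusted p-values of these 8 lay between 0.00149 and 0.0427, and 14.8% of the 54 probes were called, against 24.0% of all tested probes. Without ALKBH7 uninduced replicate 1 all 8 were kept, among 10 probes called higher and 18 lower (51.9%, against 44.4% of all). With that array as the only uninduced one 2 were called higher and 2 lower (7.41%, against 12.6%), and of the 8 only THOC6 (-1.16 ± 0.22, adjusted p = 0.0095) and THOC3 by probe ILMN_2415926 (-0.69 ± 0.18, adjusted p = 0.0272) were kept. Under median scaling none of the 54 was called.

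Induction of ALKBH4 gave no member call. By limma 0 of 65 member probes passed, as did 0 (0%) of all 15444 tested probes, and at an unadjusted p under 0.05 there were 2 member probes (3.08%), against 2.43% of all. Arrays labelled induced lay wholly above or below the uninduced ones at 7 member probes (10.8%), against 10% of all tested probes. Log2 fold changes of the members lay between -0.46 and 0.49, with a median of 0.01, and every adjusted p was at least 0.999. The defining carriers had small differences: XPO1 0.16 ± 0.27, KPNB1 0.20 ± 0.15, RAN -0.20 ± 0.42, RCC1 -0.03 ± 0.15 and XPOT -0.27 ± 0.47 and -0.41 ± 0.48.

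The member probes with the highest moderated t in that comparison included NUP210, with 8.42, 8.77 and 8.18 in ALKBH4 induced arrays, against 7.77, 7.91 and 8.21 in ALKBH4 uninduced arrays (log2 fold change 0.49 ± 0.20). KPNA2, an importin alpha, read 7.39, 7.54 and 8.16 in ALKBH4 induced arrays, against 7.44, 6.88 and 7.42 in ALKBH4 uninduced arrays (0.45 ± 0.19). Both overlapped between the groups. KPNA3, another adaptor of that family, did not overlap, with 8.66, 8.50 and 9.04 in ALKBH4 induced arrays, against 8.23, 8.13 and 8.44 in ALKBH4 uninduced arrays (0.47 ± 0.22). XPO5 read 8.96, 9.30 and 9.12 in ALKBH4 induced arrays, against 8.58, 8.86 and 9.04 in ALKBH4 uninduced arrays (0.30 ± 0.15), and XPO4 had 0.31 ± 0.17 by probe ILMN_2088612, with 7.94, 7.98 and 8.46 induced, against 7.97, 7.49 and 7.99 uninduced. In these exportins the groups overlapped.

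At the low end stood TNPO3, with 9.81, 9.03 and 9.54 in ALKBH4 induced arrays, against 9.84, 10.06 and 9.74 in ALKBH4 uninduced arrays (-0.42 ± 0.22). IPO7 read 8.03, 7.35 and 8.03 in ALKBH4 induced arrays, against 8.29, 8.34 and 8.16 in ALKBH4 uninduced arrays (-0.46 ± 0.29). Of these carriers IPO7 alone did not overlap. NUP155, of the inner ring, read 7.04, 6.52 and 7.15 by probe ILMN_1761772 in ALKBH4 induced arrays, against 6.97, 7.49 and 7.11 in ALKBH4 uninduced arrays (-0.29 ± 0.17). The RCC1 probe ILMN_2354211 read 8.37, 7.49 and 8.23 in ALKBH4 induced arrays, against 8.33, 8.49 and 8.22 in ALKBH4 uninduced arrays (-0.32 ± 0.21). NUP85, of the Y-shaped scaffold, read 11.04, 10.88 and 11.15 in ALKBH4 induced arrays, against 11.13, 11.47 and 11.13 in ALKBH4 uninduced arrays (-0.22 ± 0.15). Each of these last 3 overlapped between the groups. Other tested probes of the genes named here had 0.08 ± 0.19 (XPO4) and 0.07 ± 0.17 (NUP155).

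The difference between the 2 responses, ALKBH7 minus ALKBH4, was itself tested, and no member probe was called, against 0.0712% of all tested probes (11 probes). At an unadjusted p under 0.05 there were 10 member probes (15.4%), against 16.9% of all. TNPO1 came nearest, with a difference of 1.14 ± 0.27 log2 units (adjusted p = 0.0701), then NUP43 with 0.69 ± 0.17 (adjusted p = 0.0768), NUP42 with -0.91 ± 0.24 (adjusted p = 0.0879) and XPOT with -2.16 ± 0.66 (adjusted p = 0.137). A call in the ALKBH7 line and none in the ALKBH4 line is therefore not shown to be a difference between the lines. Without ALKBH7 uninduced replicate 1 the count was 18, 3 higher and 15 lower, while 21.8% of all tested probes were called. XPOT then had -2.94 ± 0.29 (adjusted p = 5.93e-05) and -1.97 ± 0.39 (adjusted p = 0.00341), NUP153 -1.61 ± 0.23 (adjusted p = 0.000414), NUP160 -1.46 ± 0.18 (adjusted p = 0.00019) and TNPO1 1.17 ± 0.27 (adjusted p = 0.00782).

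Before induction the lines already differed in these genes. The ALKBH7 probe itself read 9.66, 9.19 and 9.12 in ALKBH7 uninduced arrays, against 7.86, 7.79 and 7.75 in ALKBH4 uninduced arrays. The part of that difference in the member counts was not tested. In ALKBH7 uninduced arrays 11 member probes were higher (background 19.9% of all tested probes) and 20 lower (background 18.5%) than in ALKBH4 uninduced arrays, 47.7% of the members, against 38.4% of all tested probes. The median log2 fold change was -0.29, against -0.03 over all. The arrays of the lines also differed in brightness and in how many member probes were detected, as given above. By its median before normalization every ALKBH7 array was brighter than every ALKBH4 array, so line and brightness cannot be told apart. Without ALKBH7 uninduced replicate 1 the count was again 31 (47.7%, against 42.2% of all tested probes), with 15 higher and 16 lower, of which 25 were among those just counted, and the median was -0.08, against -0.02 over all. With that array as the only one of its group 12 were higher and 33 lower (69.2%, against 50.1%), with a median of -0.58. Scaling the arrays to a common median left 6 (9.23%, against 9.05% of all), with 1 higher and 5 lower. This comparison shares the ALKBH7 uninduced arrays with the induction of ALKBH7.

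TPR, the filament of the nuclear basket, read 11.47, 11.69 and 11.42 in ALKBH7 uninduced arrays, against 10.00, 9.83 and 9.92 in ALKBH4 uninduced arrays, a log2 fold change of 1.61 ± 0.15 (adjusted p = 1.75e-05). NUP210, which is anchored in the pore membrane, read 9.50, 9.23 and 9.06 in ALKBH7 uninduced arrays, against 7.77, 7.91 and 8.21 in ALKBH4 uninduced arrays (1.30 ± 0.20, adjusted p = 0.000365). The importer IPO4 read 9.73, 9.43 and 9.30 in ALKBH7 uninduced arrays, against 7.95, 8.56 and 8.22 in ALKBH4 uninduced arrays (1.24 ± 0.16, adjusted p = 0.000142). All 3 were higher in every array of the ALKBH7 line, and without uninduced replicate 1 they had 1.64, 1.19 and 1.13 and kept their calls. XPO6, NUP214, KPNA6, NUP188, TNPO2, TNPO3, IPO13 and NUP93 were also called higher.

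The RCC1 probe ILMN_2354211 read 6.56, 7.09 and 6.92 in ALKBH7 uninduced arrays, against 8.33, 8.49 and 8.22 in ALKBH4 uninduced arrays (log2 fold change -1.49 ± 0.21, adjusted p = 0.000208). The channel protein NUP54 read 8.13, 8.50 and 8.97 by probe ILMN_2061405 in ALKBH7 uninduced arrays, against 10.21, 9.69 and 10.02 in ALKBH4 uninduced arrays (-1.44 ± 0.19, adjusted p = 0.000168). The RANBP1 probe ILMN_2109156 read 10.20, 10.21 and 10.19 in ALKBH7 uninduced arrays, against 11.54, 10.73 and 11.46 in ALKBH4 uninduced arrays (-1.04 ± 0.20, adjusted p = 0.00191). Again the lines did not overlap, but the other probes of RCC1 and RANBP1 had 0.12 ± 0.15 and 0.06 ± 0.18 with no call, and the second NUP54 probe had -0.79 ± 0.27 (adjusted p = 0.032). KPNA2, NUP155 (ILMN_1761772) and NUP43 were undetected in ALKBH7 uninduced arrays and were at least 1.45-fold, 1.40-fold and 1.30-fold lower there. These bounds compare lines whose arrays differed in brightness. The other NUP155 probe, ILMN_1768293, was detected in all 12 arrays and had -0.27 ± 0.17 (adjusted p = 0.229) with no call. For XPO1 (-0.52 ± 0.27), RAN (-0.43 ± 0.42), KPNB1 (-0.22 ± 0.15) and XPOT (0.39 ± 0.47 and -1.04 ± 0.48) there was no call.

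**Figure D4:**
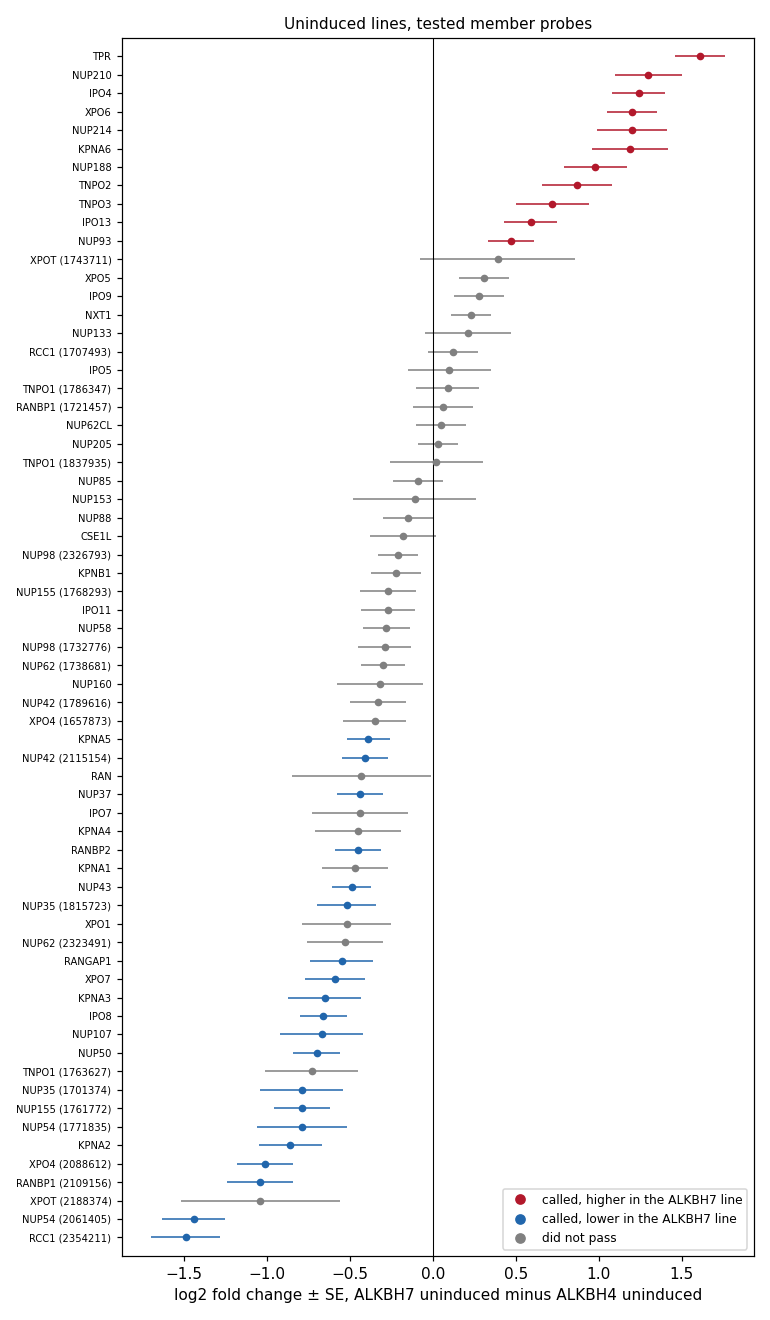
Log2 fold change of ALKBH7 uninduced over ALKBH4 uninduced arrays with its SE (x axis) for each of the 65 tested member probes (y axis, ordered by value); red and blue points were called higher and lower in the ALKBH7 line, and grey points did not pass. The 11 higher probes end at 1.61 for TPR and the 20 lower ones reach -1.49 for RCC1.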

How the data were processed

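Total RNA of 12 samples of 2 HEK293 lines, 3 per group as labelled, was measured on Illumina HumanWG-6 v3 arrays. The deposited table holds, per the file headers, the unnormalized bead intensity of each probe, which the authors exported from GenomeStudio, and a detection p-value from negative control beads, also as deposited. The authors quantile normalized the intensities in J-Express, and the deposited normalized intensity values share 1 distribution within each line but not between lines.

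Here quantile normalization was applied to the 12 arrays jointly, without background correction, and values were put on the log2 scale. Arrays share 1 distribution as a result, so a shift common to all probes is removed. One model with 4 group means per probe was fitted with limma 3.58.1 (lmFit, eBayes) in R 4.3.3, in place of the rank product of the study. The model was also run on simulated data with the same spread in every array, which cannot show how an outlying array acts. P-values were adjusted by Benjamini-Hochberg over 15444 probes, with a threshold of 0.05. Symbols came from GEO's platform annotation, where 27578 probes had 1 symbol, 13 several and 21212 none, and LOC650215 is unnamed there. For a fold bound, the group without a detected array was set at each array's lowest detected signal, or the probe's own value if higher. The other group kept its values, detected or not. No duplicate arrays were found. Arrays give no read depth, and their number limits the precision. The study's own comparison values were not used. Figures were drawn in Python with matplotlib.

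Probes named with values were the members called after ALKBH7 induction, the 5 highest and 5 lowest by moderated t after ALKBH4 induction, the 3 highest and 3 lowest called between the uninduced lines, all other tested probes of these genes, and XPOT, XPO1, KPNB1, RAN and RCC1 always. NUP153 and the genes newly called in the fits without an array were added after their values were seen. Members and lists were chosen with earlier results of these data known. Alternatives covered background correction, normalization, filter, threshold, variance model, array weights, the replicate block and left-out arrays.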

Additional observations from a re-analysis of the deposited data

How the results depend on the processing

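The 3 arrays per group and the spread of the ALKBH7 uninduced arrays limit every count below. After ALKBH7 induction 13 member probes were called, 20.0%, against 24.0% of all tested probes. With no detection filter 10 of 73 were called (13.7%, against 6.46% of all 48803 probes). There were 0 under median scaling, 7 (3 higher, 4 lower) with each line normalized and fitted alone (12.7%, against 13.6% of all), 37 with array weights (56.9%, against 55.6%), 7 at an adjusted p of 0.01 (10.8%, against 8.13%) and 7 genes by the mean of a gene's probes (13.2%, against 21.5%). Median scaling put the median log2 fold change of all tested probes at 0.07 in the ALKBH7 line (members 0.03), 0.28 in the ALKBH4 line (members 0.36) and -0.24 between the uninduced lines (members -0.66). Leaving out 1 array at a time gave 7 to 25 calls in the ALKBH7 line. There were 25 without ALKBH7 uninduced replicate 1 (38.5%, against 44.4% of all tested probes). There were 7 (10.8%) without uninduced 2, induced 1 or induced 2 of that line, against 11.5%, 9.86% and 7.98% of all. The difference between responses gave 0 calls, with 24 under array weights (36.9%, against 41.6%) and 3 at an adjusted p of 0.1 (4.62%, against 2.47%). With 1 array left out it gave 0 to 18, with 18 without ALKBH7 uninduced replicate 1 (27.7%, against 21.8%). Between the uninduced lines 31 were called (47.7%, against 38.4%), with 6 under median scaling (9.23%, against 9.05%) and 17 at an adjusted p of 0.01 (26.2%, against 21.2%). With 1 array left out there were 18 to 31, with 18 without ALKBH4 uninduced replicate 1 (28.1%, against 27.4%). ALKBH4 induction gave 0 calls under every alternative run. With ALKBH7 uninduced replicates 2 and 3 left out together, RAN (0.73) and XPO1 (0.80) reversed. Among the called probes after ALKBH7 induction, TNPO1 (ILMN_1786347), NUP43 and NUP42 (ILMN_1789616) lost the call only under median scaling. XPOT (ILMN_1743711) lost it in 2 of 27 alternatives, IPO7 in 11 of 26 and NUP88 in 18 of 27. These alternatives are counted by probe and leave out the mean of a gene's probes, and the other TNPO1 probes did not show the rise. The cause of these changes was not tested. The replicate numbers are shared between groups. Deviations of same-numbered arrays correlated at 0.409, -0.117 and 0.166 in the ALKBH7 line and -0.127, 0.26 and 0.106 in the ALKBH4 line. With 3 arrays per group these values cannot tell whether same-numbered arrays share more than a number. With the replicate block 12 member probes were called for ALKBH7 induction (18.5%, against 21.6% of all tested probes). For ALKBH4 induction the block gave 0 (against 0% of all) and for the difference 0 (against 0.00648%). Between the uninduced lines it gave 31 (47.7%, against 36.2%).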
